A study of Homo sapiens with 42 samples.

Results

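The SERPINB genes encode the clade B serpins, protease inhibitors that stay inside the cell because they lack a classical signal peptide. An inhibitory serpin offers its target protease a bait loop, is cut once, and then traps the enzyme in a covalent complex. In stratified squamous epithelium several of them are abundant keratinocyte products, and SERPINB3 and SERPINB4 are known as the squamous cell carcinoma antigens. Described here are 7 of these genes, SERPINB1, SERPINB3, SERPINB4, SERPINB5, SERPINB7, SERPINB8 and SERPINB13, of 19775 genes measured. They were selected on their levels and on their cetuximab response in these same arrays, so their own values are given as a description without a test. Each gene is read by the probe set annotated to it alone with the highest mean over 42 arrays. Of the 7 genes, 6 lie in the serpin cluster on 18q21, and SERPINB1 lies on chromosome 6.

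Expression was measured on Affymetrix hgu133plus2.0 arrays in HNSCC (squamous carcinoma of the head and neck) lines. Cells treated for 24 h with 100 nM cetuximab (CTX), an antibody that blocks ligand binding to the growth factor receptor EGFR, were compared with control cells. The labels call the controls untreated, and the methods name PBS. There are 3 CTX and 3 control arrays for each of 6 lines, namely the HPV-negative SCC25, SQ20B and SCC61 and the HPV-positive SCC047, SCC090 and 93VU147T. Treated HPV-negative SCC1 cells and untreated HaCaT cells, an immortalised and not transformed keratinocyte line, have 3 arrays each without a partner group. Every group is a single established line, and whether the arrays of a group come from separate cultures is given in no source, so that p-values cover array-to-array spread only. Levels are log2 values, and a difference of 1 is a doubling.

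DUSP6, an ERK phosphatase gene that ERK signalling switches on, was lower in CTX than in control arrays of every one of the 6 lines (adjusted p at most 0.0384), by 0.72 (SCC047) to 4.56 (SQ20B) log2 units. The squamous markers KRT5, DSG3 and CDH1 were above the median of all values on all 42 arrays and KRT14 on 38. Of 4 leukocyte markers, PTPRC and MPO were below that median on all 42 arrays, while CD3E was above it on 40 and LST1 on 41, at no more than 5.98. Of 3 endothelial markers, CDH5 was below it on all 42, and PECAM1 on 42 and VWF on 36 arrays were above it, at no more than 6.49. Of 4 fibroblast markers, COL1A1 was above it on all 42 arrays, PDGFRB on 36, COL1A2 on 25 and LUM on 6. Their highest values were 10.04 for COL1A1, 5.59 for PDGFRB, 6.88 for COL1A2 and 9.61 for LUM. In the mean of the 6 lines, where 45.9% of all genes were called, 3 of 4 squamous and 2 of 4 fibroblast markers were called higher, and 1 of 4 leukocyte and 1 of 3 endothelial markers lower. The part of this in the serpin values was not tested. The 3′ minus 5′ difference of the ACTB control probe sets, a sign of RNA quality, was 0.29 higher in CTX than in control arrays of SQ20B (exact two-sided permutation p = 0.1, the smallest that 3 against 3 arrays allow), and between 0.00 and 0.11 apart in the other lines. The same smallest p was reached for ACTB in SCC25 (0.07) and SCC047 (0.11), and for the GAPDH control probe sets in SQ20B (0.07) and SCC047 (0.04), all higher with CTX. Its part in the serpin values of these lines was not tested. The array of SCC090 control replicate 1 stood apart from its group, with 132 genes (0.668%) at least 1 log2 unit above both other controls, and the SCC090 differences of the serpins are therefore also given without it.

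SERPINB3 and SERPINB4 are adjacent copies of one ancestral gene, and their start regions are shown because a difference between the copies in these data has to be read against how alike they are. The RefSeq windows of 300 bases (GRCh38.p14), 250 before to 50 after the start site, are given 5′ to 3′ on the minus strand. They lie at chr18:63661844-63662143 for SERPINB3 and chr18:63644207-63644506 for SERPINB4. The capitals mark the 4 positions at which the aligned copies differ.
SERPINB3: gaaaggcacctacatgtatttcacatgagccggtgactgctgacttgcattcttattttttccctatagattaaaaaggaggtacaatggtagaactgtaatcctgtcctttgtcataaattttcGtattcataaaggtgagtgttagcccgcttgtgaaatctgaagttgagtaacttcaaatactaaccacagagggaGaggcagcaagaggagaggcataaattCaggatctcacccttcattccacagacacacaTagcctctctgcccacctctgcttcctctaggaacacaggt
SERPINB4: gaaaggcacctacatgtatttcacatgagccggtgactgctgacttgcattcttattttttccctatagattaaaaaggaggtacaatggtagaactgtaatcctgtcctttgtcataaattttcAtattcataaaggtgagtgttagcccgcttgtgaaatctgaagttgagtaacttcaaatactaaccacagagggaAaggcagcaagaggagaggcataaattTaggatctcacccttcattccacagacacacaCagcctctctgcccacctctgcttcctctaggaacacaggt
The windows align without gaps and are identical at 296 of 300 bases (98.7%). The third gene shown is SERPINB13, the next neighbour of SERPINB4, at chr18:63587093-63587392 on the plus strand. Capitals mark its match to the AP-1 motif TGANTCA, with the first base at position -87 from the start site. They also mark the letters of the core promoter motif TATAAA, which begin at position 25, after the start site and not before it.
SERPINB13: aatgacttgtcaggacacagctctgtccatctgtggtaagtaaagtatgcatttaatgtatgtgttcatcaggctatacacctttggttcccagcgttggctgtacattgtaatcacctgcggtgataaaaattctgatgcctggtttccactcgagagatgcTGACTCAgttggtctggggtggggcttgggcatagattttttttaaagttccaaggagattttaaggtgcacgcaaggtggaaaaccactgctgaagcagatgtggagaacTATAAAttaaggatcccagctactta
Of the 4 motifs searched on both strands, the AP-1 letters were in 7.71% of 35116 RefSeq windows of the same length, the core promoter motif in 11.5%, GCCNNNGGC (AP-2) in 23.2% and TTCNNNGAA (GAS) in 7.66%. None of the 4 was in the SERPINB3 or SERPINB4 window. All 7 genes had an entry, with 9 start sites in all because SERPINB7 has 3. AP-1 letters were found once for SERPINB5 and SERPINB13, at 2 places for SERPINB8 and at 2 places in 2 of the 3 SERPINB7 windows, and not for SERPINB1. GAS letters were found once each for SERPINB1, SERPINB8 and 1 of the SERPINB7 windows, and AP-2 letters once, for SERPINB1. Besides SERPINB13, the core promoter motif was found at 2 places for SERPINB8 and at 2 places in 1 of the SERPINB7 windows. These matches describe the letters only.

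To ask how the inhibitors responded to EGFR blockade, a gene was counted as moved in a line when its means differed by at least 1 log2 unit and the CTX arrays lay entirely above or entirely below the controls. In SQ20B, SERPINB3, SERPINB4 and SERPINB13 moved higher, against 2.31% of all genes that moved either way. In SCC047, SERPINB3 and SERPINB4 moved lower (background 1.98%). SERPINB4 moved higher in SCC25 (background 0.46%) and in SCC61 (background 5.91%), SERPINB3 and SERPINB13 moved higher in 93VU147T (background 1.76%), and 0 of the 7 moved in SCC090 (background 0.126%). Nothing is read from these counts, since the genes were selected on this contrast. The smallest changes inside the rule were SERPINB3 in 93VU147T (1.14) and SERPINB13 in SQ20B (1.19), and the largest outside it were SERPINB13 in SCC25 (0.97) and SERPINB8 in SCC61 (0.93). The median change of the 7 genes was 0.17 in SCC25, 0.66 in SQ20B, 0.57 in SCC61, -0.40 in SCC047, 0.08 in SCC090 and 0.64 in 93VU147T, whereas the median over all genes stayed between -0.04 and 0.00.

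**Figure D1:**
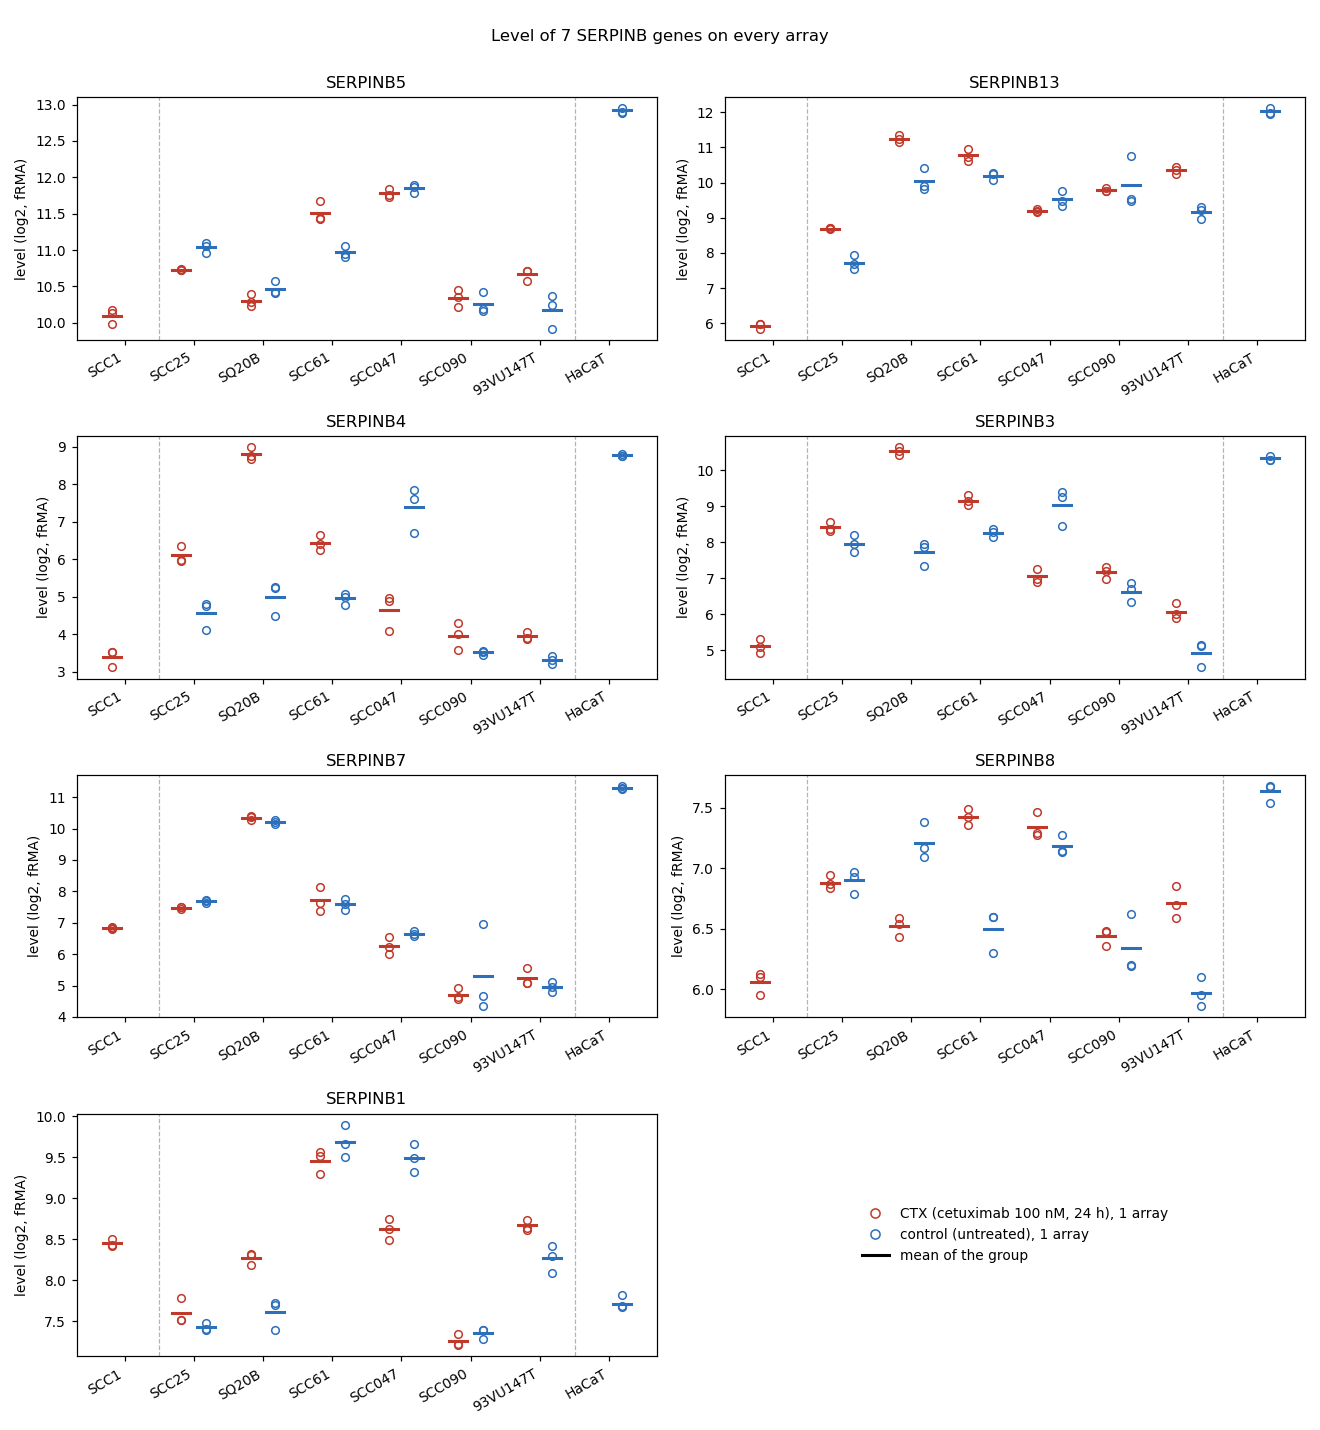
Level (log2) of each of the 7 genes on every array, with CTX arrays in red left of control arrays in blue and a bar at each group mean; SCC1 has only CTX and HaCaT only control arrays. SERPINB4 in SQ20B (8.68 to 9.0 against 4.48 to 5.27) and in SCC047 (4.08 to 4.96 against 6.70 to 7.85) lie far apart in opposite directions.

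SERPINB4, which inhibits chymotrypsin-like proteases such as cathepsin G and mast cell chymase, had the largest higher (SQ20B) and the largest lower (SCC047) difference of the 7 genes. In SQ20B its levels were 9.0, 8.68 and 8.75 on the CTX arrays and 5.25, 4.48 and 5.27 on the controls. The groups were far apart, with a difference of 3.81 ± 0.24 log2 units (SE from limma). In SCC047 the levels were 4.96, 4.89 and 4.08 with CTX and 7.85, 7.61 and 6.70 in controls. Here the CTX arrays all lay below the controls, with a difference of -2.74 ± 0.24 log2 units. The SQ20B controls and the SCC047 CTX arrays read near or below the median of all values, 5.13, where a probe set may be at its background, so no fold is given for SERPINB4. In SCC25 the CTX arrays read 5.97, 6.36 and 5.99 and the controls 4.75, 4.81 and 4.13, a difference of 1.55 ± 0.24. In SCC61 they read 6.41, 6.64 and 6.25 against 5.09, 4.79 and 5.00, a difference of 1.47 ± 0.24. SCC25 and SCC61 thus had differences of nearly the same size, well below that of SQ20B. SCC090 (4.02, 4.30 and 3.59 with CTX, 3.54, 3.57 and 3.44 in controls) and 93VU147T (3.88, 3.90 and 4.07 with CTX, 3.42, 3.21 and 3.32 in controls) had the lowest levels of this probe set, and there the groups were separate by 0.45 and 0.64.

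SERPINB3, which inhibits the cysteine cathepsins K, L and S, went the same way as SERPINB4 in 6 of 6 lines. In SQ20B the CTX arrays read 10.65, 10.42 and 10.54 and the controls 7.87, 7.34 and 7.95, a difference of 2.82 ± 0.19 (7.07-fold higher). In SCC047 they read 6.97, 7.27 and 6.91 with CTX and 9.41, 9.25 and 8.44 in controls, a difference of -1.98 ± 0.19 (3.95-fold lower). In 93VU147T the CTX arrays read 6.01, 5.89 and 6.31 and the controls 5.14, 5.12 and 4.52, a difference of 1.14 ± 0.19. In these 3 lines no CTX array overlapped a control. In SCC61 the levels were 9.14, 9.32 and 9.03 with CTX and 8.36, 8.15 and 8.29 in controls, a difference of 0.89. SCC25 (8.37, 8.57 and 8.32 against 8.21, 7.96 and 7.72) and SCC090 (7.31, 7.21 and 6.99 against 6.33, 6.70 and 6.86) had the smallest differences, 0.46 and 0.54, and these groups did not overlap either. Without SCC090 control replicate 1 the SCC090 difference was 0.38.

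The readings of SERPINB3 and SERPINB4 are not fully independent. The SERPINB3 probe set belongs to the manufacturer's class whose probes can match related sequences, and a further probe set annotated to both genes, left out of the rule, changed by 2.73 in SQ20B, -1.84 in SCC047 and 0.91 in SCC61. How much of either signal comes from the other copy was not tested. The second SERPINB3 probe set gave 3.63 in SQ20B, -1.78 in SCC047, 1.30 in SCC61 and 1.02 in SCC25, in the same directions as the first, and 0.63 in 93VU147T, which is under the size that counts as moved.

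SERPINB13, or headpin, another inhibitor of cathepsins K and L, had higher levels with CTX in 4 of 6 lines. In SQ20B the CTX arrays read 11.34, 11.14 and 11.23 and the controls 9.83, 10.41 and 9.91, a difference of 1.19 ± 0.19. In 93VU147T they read 10.36, 10.23 and 10.45 against 9.30, 9.21 and 8.97, also 1.19 ± 0.19 (2.28-fold higher). SCC25 followed with 8.70, 8.70 and 8.67 with CTX and 7.94, 7.68 and 7.55 in controls, a difference of 0.97, and SCC61 with 0.57. In these 4 lines the groups were separate. In SCC047 the CTX arrays (9.16, 9.26 and 9.18) lay just below the controls (9.77, 9.47 and 9.32), by 0.32. In SCC090 the CTX arrays read 9.85, 9.75 and 9.77 and the controls 10.75, 9.48 and 9.53, so the groups overlapped. The difference there was -0.13 with all controls and 0.28 without control replicate 1. Of the 6 SERPINB13 probe sets, all 6 were higher with CTX in SQ20B (0.19 to 1.56), in 93VU147T (0.06 to 1.19), in SCC25 (0.09 to 1.09) and in SCC61 (0.15 to 0.77), while in SCC047 they ran from -0.48 through 0.20.

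SERPINB5 (maspin), a clade B serpin that does not inhibit proteases and is known as a tumour suppressor of mammary epithelium, had small differences. They ran from -0.31 (SCC25, where the CTX arrays read 10.74, 10.73 and 10.72 and the controls 11.10, 11.06 and 10.96) through 0.54 (SCC61, 11.44, 11.67 and 11.43 against 10.90, 10.94 and 11.06). The groups were separate in these lines, in SQ20B (-0.17) and in 93VU147T (0.49), and overlapped in SCC047 and SCC090. The second SERPINB5 probe set gave -0.18 in SCC61, the opposite sign, and 0.42 in SCC047, where the first gave -0.07.

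SERPINB8, an inhibitor of the proprotein convertase furin, had its largest differences in SCC61, with 7.42, 7.36 and 7.49 on CTX arrays and 6.60, 6.30 and 6.60 on controls, and in 93VU147T, with 6.70, 6.85 and 6.59 against 5.95, 6.10 and 5.86. The CTX arrays lay above the controls by 0.93 and 0.75. In SQ20B they lay below, with 6.43, 6.59 and 6.54 against 7.17, 7.38 and 7.09, a difference of -0.69 ± 0.10. The second SERPINB8 probe set did not give the first 2 of these differences (-0.35 in SCC61 and -0.10 in 93VU147T), and gave -0.26 in SQ20B, so that SQ20B alone of the 3 lines kept its sign.

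SERPINB7, an epidermal serpin whose loss causes the skin disease Nagashima-type palmoplantar keratosis, is read by 1 probe set. Its differences lay between -0.40 and 0.29 in 5 lines. In SCC090 the CTX arrays read 4.56, 4.91 and 4.62 and the controls 6.97, 4.34 and 4.66, which gives -0.63 ± 0.33 with all controls and 0.20 without control replicate 1. The sign in SCC090 therefore rests on 1 array. The SE, 0.33 in each line because the fit pools the spread, was 0.16 without that array.

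SERPINB1, an inhibitor of the neutrophil proteases elastase, cathepsin G and proteinase 3, is the member outside the cluster. In SQ20B the CTX arrays read 8.32, 8.31 and 8.19 and the controls 7.70, 7.40 and 7.72, a difference of 0.66 ± 0.11. In SCC047 they read 8.75, 8.49 and 8.63 against 9.49, 9.66 and 9.32, a difference of -0.86 ± 0.11. SERPINB1 was thus higher where SERPINB3 and SERPINB4 were highest relative to control, and lower in the line in which they were lower. It was also higher in 93VU147T (0.40) and SCC25 (0.17), with separate groups. In SCC61 the 4 SERPINB1 probe sets disagreed, with -0.23 for the brightest, 0.69 and 1.29 for the next, and -0.20 for the dimmest. The dimmest also gave the opposite sign in SQ20B (-0.27, CTX arrays below the controls), against 0.66 to 0.76 for the others. In SCC25 it gave -0.15, with overlap, against 0.17 to 0.43.

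**Figure D2:**
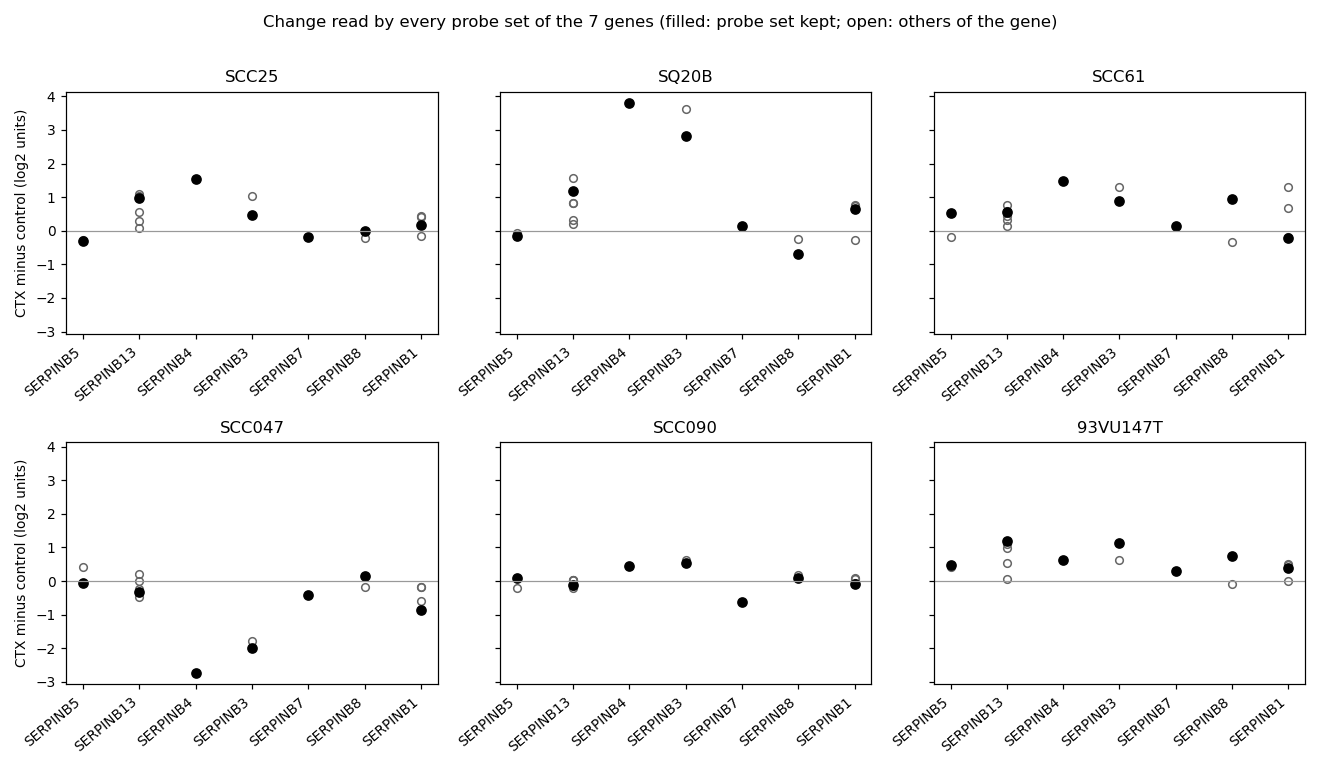
Difference CTX minus control (log2 units) read by every probe set of the 7 genes in each line; filled points are the probe sets kept, open points the other sets of the same gene. The sets agree in sign for SERPINB3 in all 6 lines. Among others, they disagree for SERPINB8 and SERPINB1 in SCC61, and for SERPINB1 in SQ20B and SCC25.

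In gene order the measured cluster runs SERPINB5, SERPINB12, SERPINB13, SERPINB4, SERPINB3, SERPINB11, SERPINB7, SERPINB10 and SERPINB8, and the changes of the 7 genes of at least 1 log2 unit with separate arrays were all at SERPINB13, SERPINB4 and SERPINB3, which follow each other. In SQ20B these 3 had 1.19, 3.81 and 2.82, while SERPINB12 before them had -0.01, SERPINB11 after them -0.11 and SERPINB8 at the far end -0.69. In SCC047 they had -0.32, -2.74 and -1.98, with -0.07 for SERPINB5, -0.45 for SERPINB12, -0.18 for SERPINB11, -0.40 for SERPINB7, -0.70 for SERPINB10 and 0.16 for SERPINB8, so that all measured cluster genes but SERPINB8 were on the lower side there. On the probe sets kept, the 6 cluster genes among the 7 were all positive in SCC61 and in 93VU147T, and 5 of 6 were negative in SCC047. SCC25 (3 positive, 3 negative), SQ20B and SCC090 (4 positive, 2 negative each) were mixed. Second probe sets gave the opposite sign for SERPINB5 and SERPINB8 in SCC61 (-0.18 and -0.35) and in SCC047 (0.42 and -0.17), and for SERPINB8 in 93VU147T (-0.10). The arrays overlapped for SERPINB7 in SCC61 and 93VU147T and for SERPINB5 in SCC047, so these signs are weak. In all of the 6 lines SERPINB12, SERPINB11 and SERPINB10 read near or below the median of all values, 5.13, apart from SERPINB11 on SCC090 control replicate 1. A probe set may be at its background there, so these genes cannot show where a response ends.

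**Figure D3:**
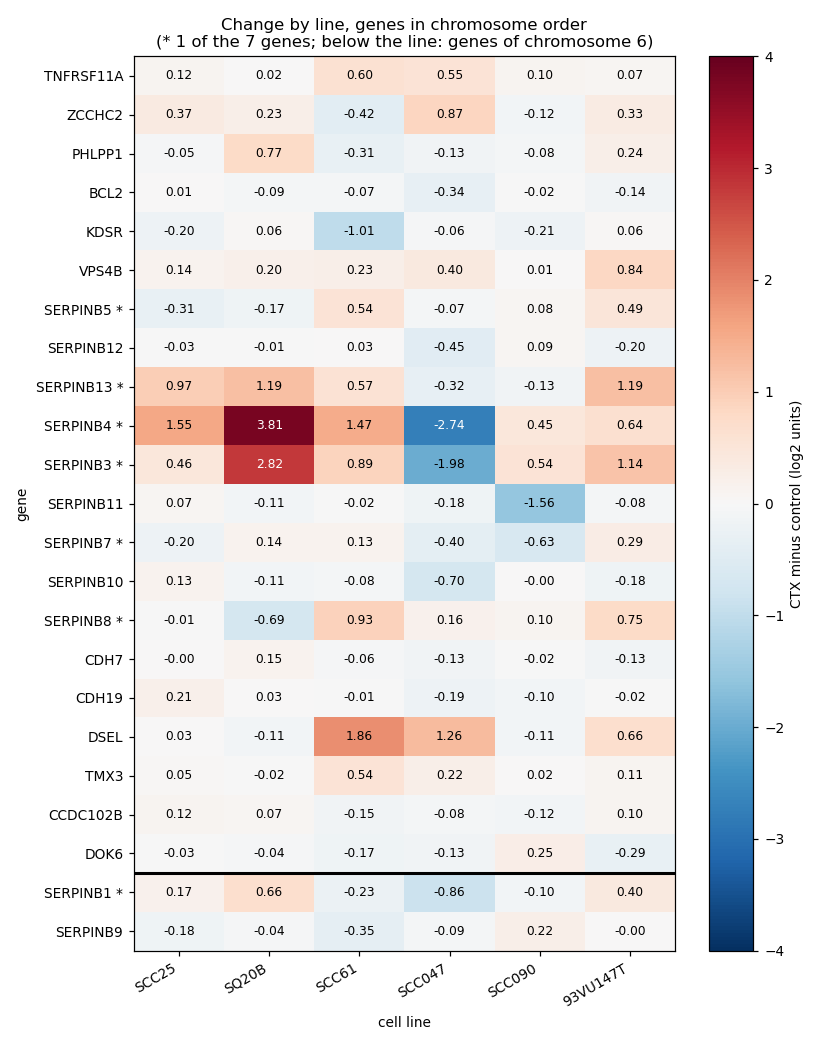
Difference CTX minus control (log2 units, colour and number) for genes in their order on chromosome 18, with SERPINB1 and SERPINB9 of chromosome 6 below the line; columns are the 6 lines. The strong colours at SERPINB13, SERPINB4 and SERPINB3 stop at SERPINB12 on one side and SERPINB11 on the other, apart from SERPINB11 in SCC090 (-1.56), which rests on 1 control array. On the other arrays both of these genes read near or below the median of all values, so they cannot show where a response ends.

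Across the 6 lines, with 1 value per line and both genes of a pair read from the same arrays, the differences of SERPINB3 and SERPINB4 correlated at r = 0.96 (0.92 without SQ20B, 0.87 without SCC047). SERPINB13 correlated with SERPINB3 at 0.78 and with SERPINB4 at 0.77, and without SCC047 at 0.54 and 0.53. The remaining pairs did not order by distance. SERPINB5 and SERPINB8, at opposite ends and 10 places apart, had r = 0.86, whereas SERPINB5 and SERPINB13, 2 places apart, had 0.07. With the mean of each gene's probe sets these r were 0.70 and 0.01. SERPINB1 on chromosome 6 had r = 0.92 with SERPINB3, 0.88 with SERPINB13 and 0.87 with SERPINB4, and with the mean of each gene's probe sets 0.90, 0.88 and 0.91. On the probe sets kept, the same 3 pairs had 0.78, 0.77 and 0.64 without SCC047, and 0.88, 0.85 and 0.80 without SQ20B. The median was 0.46 over the 15 pairs within the cluster (-0.37 to 0.96) and 0.72 over the 6 pairs with SERPINB1 (-0.34 to 0.92). These are descriptions of 6 lines, selected genes and shared arrays, and carry no test.

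Within groups, the deviations of single arrays from their group mean can be followed over 36 arrays. SERPINB3 and SERPINB4 deviated together (r = 0.73, and 0.77 without SCC090 control replicate 1). SERPINB7 and SERPINB13 had r = 0.81 with that array and 0.34 without it. On that array SERPINB11 read 8.05 against 3.86 and 4.32 on the other controls, SERPINB7 read 6.97 against 4.34 and 4.66, and SERPINB13 read 10.75 against 9.48 and 9.53, while SERPINB3 (6.33 against 6.70 and 6.86) was lower and SERPINB4 (3.54 against 3.57 and 3.44) was not apart. KRT14 was 2.14 and DUSP6 1.97 above the higher of the other controls on the same array. Without it the SCC090 differences were -0.08 for SERPINB1, 0.38 for SERPINB3, 0.46 for SERPINB4, 0.16 for SERPINB5, 0.20 for SERPINB7, 0.24 for SERPINB8 and 0.28 for SERPINB13, so that 0 of the 7 genes moved there either way. What set this array apart was not tested.

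**Figure D4:**
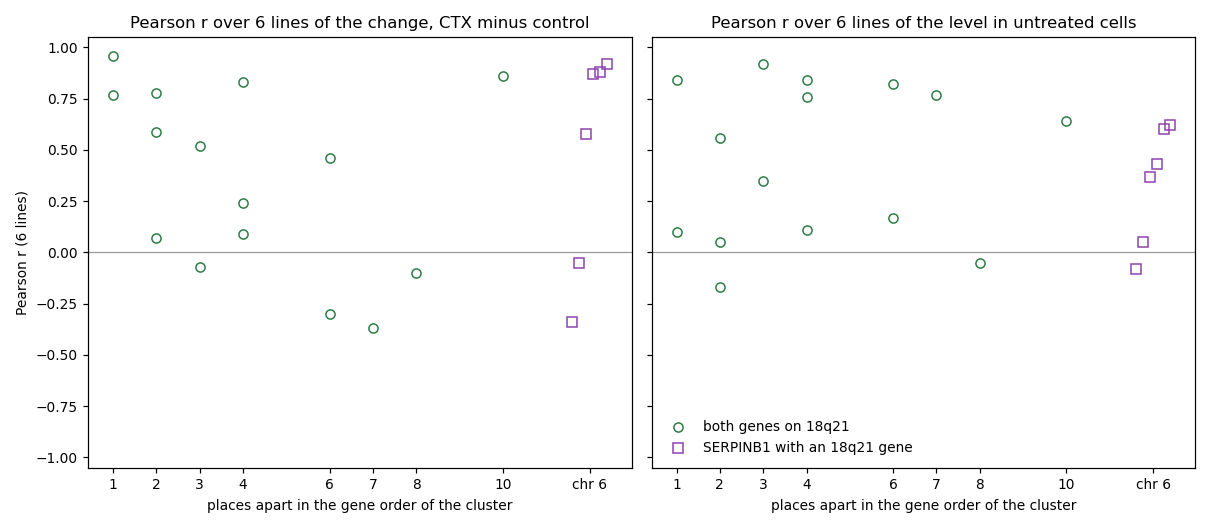
Pearson r over the 6 lines for each pair of the 7 genes against the number of places between them in the gene order, for the differences CTX minus control (left) and for the untreated levels (right); squares are pairs of SERPINB1 with a cluster gene. Adjacent SERPINB3 and SERPINB4 stand at 0.96 and 0.84, and SERPINB1 pairs reach 0.92 and 0.62.

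For each of the 7 genes the untreated means of the 6 lines spanned more than its largest difference between CTX and control in any 1 line. This sets a range over lines against a single line. The differences themselves ran from -2.74 to 3.81 for SERPINB4 and from -1.98 to 2.82 for SERPINB3. For SERPINB8 they ran from -0.69 to 0.93. Those ranges were wider than the untreated spans of these genes (4.08, 4.10 and 1.24), and for the other genes the ranges were narrower. SERPINB7 spanned 5.26 log2 units over the 6 untreated lines, with 10.21 ± 0.06 in SQ20B, 7.68 ± 0.06 in SCC25, 7.60 ± 0.18 in SCC61, 6.65 ± 0.08 in SCC047, 5.32 ± 1.44 in SCC090 and 4.95 ± 0.16 in 93VU147T (SD, n = 3), the last below the median of all values. Neighbours in this order overlapped for SCC25 and SCC61, for SCC047 and SCC090, and for SCC090 and 93VU147T. Without control replicate 1 the mean of SCC090 was 4.50, below 93VU147T. Every control array of the 3 HPV-negative lines read SERPINB7 higher than every control array of the 3 HPV-positive lines. None of the other genes of the 7 was separated in this way. The share of all genes that separate these arrays was not counted, so nothing is read from it, and it is a statement on 6 lines and not on HPV.

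SERPINB3 spanned 4.10 log2 units, with the highest untreated level in SCC047 (9.03 ± 0.52), then SCC61 (8.27 ± 0.11), SCC25 (7.96 ± 0.24), SQ20B (7.72 ± 0.33), SCC090 (6.63 ± 0.27) and 93VU147T (4.93 ± 0.35). The ranges of SCC61 and SCC25 and of SCC25 and SQ20B overlapped. SERPINB4 spanned 4.08 log2 units and put SCC047 first as well (7.39 ± 0.60), followed by SQ20B (5.00 ± 0.45), SCC61 (4.96 ± 0.15), SCC25 (4.56 ± 0.38), SCC090 (3.52 ± 0.07) and 93VU147T (3.31 ± 0.10), with overlap from SQ20B through SCC25. The line with the highest untreated level of both genes was also the line in which both were lower with CTX. The same control arrays supply the untreated level and the subtracted term of the difference. A high control value therefore lowers the difference by itself, and no relation is read from this. On CTX arrays the highest mean of both was in SQ20B, 10.54 for SERPINB3 and 8.81 for SERPINB4.

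SERPINB5 also was highest in untreated SCC047 (11.85 ± 0.07) and lowest in 93VU147T (10.18 ± 0.23), a span of 1.67, and its untreated means correlated over the 6 lines with those of SERPINB4 (r = 0.92) and SERPINB3 (0.84). SERPINB8 had the narrowest span, 1.24, with SQ20B (7.21) and SCC047 (7.18) overlapping at the top and 93VU147T (5.97) lowest. SERPINB13 ranged between 10.19 ± 0.11 in SCC61 and 7.72 ± 0.20 in SCC25, and SCC61, SQ20B, SCC090 and SCC047 overlapped in turn. SERPINB1 was highest in SCC61 (9.69 ± 0.20) and SCC047 (9.49 ± 0.17), which overlapped, and lowest in SCC090 (7.36 ± 0.06), a span of 2.33. The line 93VU147T had the lowest untreated mean of 5 of the 7 genes, and SCC090 and SCC25 of the other two. Without SCC090 control replicate 1, SCC090 was lower for SERPINB7, and level with 93VU147T for SERPINB5 (10.18 in both).

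The 2 lines without a partner group lay at the ends of these scales. In SCC1, all 3 CTX arrays lay below all 18 CTX arrays of the 6 lines for SERPINB3, SERPINB4, SERPINB5, SERPINB8 and SERPINB13, 5 of the 7 genes, as did 3.55% of all genes. SERPINB13 was the farthest, at 5.97, 5.85 and 5.98 in SCC1 against 8.67 to 11.34 in the 6 treated lines. SERPINB7 (6.79 to 6.85) and SERPINB1 (8.42 to 8.50) of SCC1 lay within the range of the others. The 18 control arrays of the cancer lines, in turn, lay below all 3 untreated HaCaT arrays for 6 of the 7 genes, all but SERPINB1, as they did for 5.57% of all genes. SERPINB13 read 7.55 to 10.75 in the cancer lines against 11.94 to 12.11 in HaCaT, SERPINB5 9.92 to 11.90 against 12.89 to 12.95, SERPINB7 4.34 to 10.26 against 11.27 to 11.36, SERPINB3 4.52 to 9.41 against 10.28 to 10.41, and SERPINB4 3.21 to 7.85 against 8.75 to 8.82. With CTX, SQ20B reached 10.42 to 10.65 for SERPINB3 and 8.68 to 9.0 for SERPINB4, beside 10.28 to 10.41 and 8.75 to 8.82 in untreated HaCaT, so that SERPINB4 overlapped and SERPINB3 lay just above. The HaCaT arrays are an array batch of their own and the SCC1 arrays share theirs only with SQ20B control replicate 3, so line and batch cannot be told apart. That SQ20B array read 5.27 for SERPINB4, 7.95 for SERPINB3 and 9.91 for SERPINB13, beside 4.48 to 5.25, 7.34 to 7.87 and 9.83 to 10.41 on the other 2 controls, and within the larger batch the SQ20B differences were 3.94, 2.94 and 1.12.

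The other clade B genes were read to ask whether the response was shared by the family. In the 6 lines all 4 measured genes read near or below the median of all values, 5.13, apart from SERPINB11 on SCC090 control replicate 1. A probe set may be at its background there, so a missing call cannot show that the family did not share the response. Of 4 measured (SERPINB2 and SERPINB6 were not analysed here), 0 were higher and 2 lower in the mean of the 6 lines by limma with Benjamini-Hochberg adjustment over all genes, where 45.9% of all genes were called, and the median change of the 4 was -0.12. SERPINB10, known from blood cells, differed by -0.16 ± 0.04 (adjusted p = 0.00237), which lay in SCC047 with 4.20, 4.41 and 4.19 on CTX arrays and 5.12, 5.08 and 4.69 on controls (-0.70, adjusted p = 1.37e-06, where 36.2% of genes were called). Without SCC047 its mean difference was -0.05 (adjusted p = 0.366). SERPINB12, an inhibitor of trypsin-like proteases, differed by -0.09 ± 0.03 in the mean (adjusted p = 0.0255) and by -0.45 in SCC047 (adjusted p = 7.04e-05), by -0.02 without that line (adjusted p = 0.635), and by -0.07 without 93VU147T (adjusted p = 0.113). Its call was also lost without 93VU147T CTX replicate 3 (adjusted p = 0.0517) or SCC047 control replicate 2 (adjusted p = 0.0521). Both read at or below the median of all values, 5.13, on nearly all these arrays. SERPINB9, the granzyme B inhibitor on chromosome 6, had -0.07 in the mean (adjusted p = 0.285), and was called in SCC61 (-0.35, adjusted p = 0.0332, with 44.1% of genes called). SERPINB11, an epithelial clade B gene, had -0.31 ± 0.20 (adjusted p = 0.205), and in SCC090 -1.56 with all controls and -0.24 (adjusted p = 0.876) without control replicate 1. The change with CTX differed between the 6 lines for 2 of these 4 genes, SERPINB10 and SERPINB12, by limma's F test, which called 59.0% of all genes. In the other single lines the shares of genes called were 16.0% in SCC25, 33.3% in SQ20B, 44.1% in SCC61, 1.40% in SCC090 and 34.6% in 93VU147T.

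Of 9 proteases that these serpins inhibit or that are close relatives of such targets, 1 was higher and 0 lower in the mean of the 6 lines, against the same 45.9%, with a median of -0.02. It was CTSV, the cathepsin L relative of keratinocytes and thymus, at 0.13 ± 0.04 (adjusted p = 0.00951), with 0.59 in SCC61 (adjusted p = 1.66e-05) and 0.39 in SCC047 (adjusted p = 0.00296). Its mean difference was 0.04 without SCC61 (adjusted p = 0.482), 0.08 without SCC047 (adjusted p = 0.175) and 0.11 without SQ20B (adjusted p = 0.0717). ELANE, PRTN3, CTSG and CMA1, the neutrophil and mast cell proteases, and CTSL, CTSK, CTSS and FURIN were not called in the mean. In the 6 lines ELANE, PRTN3 and CMA1 read below the median of all values, 5.13, and CTSG mostly a little above it. A probe set may be at its background there, so the missing calls of these genes say little. Single lines differed for CTSK and CTSS, cysteine cathepsins that SERPINB3 inhibits. CTSK was higher in SQ20B (means of 5.74 with CTX and 4.98 in controls, adjusted p = 1.82e-06) and in SCC25 (9.23 and 8.88, adjusted p = 0.0233), and lower in SCC61 (6.03 and 7.03, adjusted p = 3.99e-09) and SCC047 (5.49 and 5.79, adjusted p = 0.0298). CTSS was higher in SQ20B (by 0.84, adjusted p = 2.8e-05) and lower in SCC047 (-0.91, adjusted p = 7.36e-06). In SQ20B and SCC047 CTSK and CTSS thus differed in the same direction as SERPINB3, but the CTSK arrays of SCC047 overlapped. In SCC61 CTSK was on the other side. CTSL, also a target of SERPINB3, was called in no line, with 0.08 in SQ20B and -0.07 in SCC047, where its arrays overlapped. ELANE was lower in 93VU147T (-0.32, adjusted p = 0.0277), where its arrays overlapped and all read below the median of all values. The differences of FURIN (-0.02, adjusted p = 0.713) and CTSL (-0.03, adjusted p = 0.428) were small in the mean.

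Of 12 measured genes flanking the cluster, 6 on each side, 5 were higher and 2 lower in the mean, beside 45.9% of all genes called, with a median of 0.03. On the side of SERPINB5, VPS4B, an ATPase of membrane scission and the nearest flanking gene, was higher (0.30 ± 0.04, adjusted p = 1.28e-06, 0.84 in 93VU147T), and KDSR, a reductase of sphingolipid synthesis, was lower (-0.23 ± 0.04, adjusted p = 4.47e-06). The KDSR call lay in SCC61, with -1.01 (adjusted p = 2.09e-11, 44.1% of genes called). Without that line the mean difference was -0.07 (adjusted p = 0.19), and its second probe set gave 0.19 in the mean, the opposite sign. TNFRSF11A, the receptor RANK, was higher by 0.24 (adjusted p = 0.000369), ZCCHC2 by 0.21 (adjusted p = 0.00428), and BCL2, the inhibitor of apoptosis, lower by 0.11 (adjusted p = 0.0265). On the side of SERPINB8, DSEL, a dermatan sulfate epimerase relative, was higher by 0.60 ± 0.06 (adjusted p = 2.21e-09), with 1.86 in SCC61 and 1.26 in SCC047, and TMX3, a disulfide isomerase, by 0.15 (adjusted p = 0.0161). Without SCC047 the mean differences were 0.08 for ZCCHC2 (adjusted p = 0.312) and -0.06 for BCL2 (adjusted p = 0.304), and without SCC61 that of TMX3 was 0.08 (adjusted p = 0.317). The BCL2 call was also lost without 93VU147T CTX replicate 3 (adjusted p = 0.054) or SQ20B CTX replicate 1 (adjusted p = 0.0517). With the second probe set the calls of DSEL (0.12, adjusted p = 0.057), TNFRSF11A (0.05, adjusted p = 0.589), ZCCHC2 (0.13, adjusted p = 0.0509) and BCL2 (-0.04, adjusted p = 0.406) were lost. DSEL, BCL2 and, outside SCC090, TNFRSF11A read near or below the median of all values, 5.13, where a probe set may be at its background. In SQ20B, where SERPINB13, SERPINB4 and SERPINB3 moved, 1 of the 12 flanking genes was called, beside 33.3% of all genes. It was PHLPP1, an AKT phosphatase (0.77, adjusted p = 7.66e-08), and DSEL had -0.11 and VPS4B 0.20. In SCC047, where SERPINB3 and SERPINB4 moved, 4 flanking genes were called higher and 1 lower (36.2% of all genes called). The calls were 3 higher and 3 lower in SCC61 (44.1%), and 3 higher and 1 lower in 93VU147T (34.6%). They were 0 in SCC25 (16.0%) and in SCC090 (1.40%).

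The genes whose pattern was most like that of each serpin were sought over the 12 group means of the 6 lines among 10308 genes that span at least 1 log2 unit. SERPINB3 and SERPINB4 were each other's nearest gene (r = 0.919). SERPINB3 was followed by POLR3GL (0.908) and USP28 (0.906), and SERPINB4 by SLC7A7 (0.907) and IP6K3 (0.898). SERPINB13 was nearest to UBQLN2 (0.934), ZNF182 (0.933) and ZYG11B (0.920), SERPINB5 to CXCL1 (0.959), STAC (0.943) and DRG1 (0.940), and SERPINB7 to ZFHX4 (0.974), LINC00911 (0.972) and UBE2Q2P16 (0.970). SERPINB8 was nearest to ADGRF4 (0.884), SFR1 (0.884) and ADGRE2 (0.870), and SERPINB1 to NUDCD3 (0.948), SGSM3 (0.947) and PLEKHA7 (0.943). Only SERPINB3 and SERPINB4 had another of the 7 serpins among their 3 nearest genes. Each r is among the highest of 10308 genes on 12 means from 6 lines, so its size alone says little. How much of the r of SERPINB3 and SERPINB4 is signal shared between their probe sets was not tested.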

How the data were processed

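The values deposited are log2 signals of single probe sets, normalised by the authors with fRMA 1.16.0 per their methods and processing notes. The batch correction pSVA is named in the methods too, and no source used here says if this table includes it. Values were used as deposited. The 7 genes and all lists were chosen with earlier results of these data known. Of 54675 probe sets, 41091 carry 1 gene symbol, and the brightest per gene was kept. In limma 3.58.1 (R 4.3.3) 12 group means were fitted over 36 arrays (24 residual and 6.86 prior degrees of freedom), with contrasts CTX minus control per line and their mean, adjusted by Benjamini-Hochberg over 19775 genes at a threshold of 0.05. HaCaT replicate 2 is labelled as a repeat of replicate 1, and both count as 1 sample in its mean. The arrays fall in 3 batches by array label (35, 4 and 3 arrays). Named are all 7 genes, the other clade B genes, proteases and flanking genes called in the mean or called with a change of at least 1 in a line, the 3 most similar genes per serpin and DUSP6. PHLPP1, CTSL and FURIN were named beside these after their values were seen, as were DOK6, CTSK, CTSS and the neutrophil and mast cell proteases. Replicate numbers were checked for pairing over 18 same-numbered pairs. Their deviations correlated between -0.15 and 0.32, above 0.1 in 7 pairs, so the numbers were not taken to pair the samples. The number of arrays limits precision. Alternatives were other probe set choices, scaling, filters, fits, and leaving out arrays and lines.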

Additional observations from a re-analysis of the deposited data

Results flagged for a closer look

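SERPINB3 and SERPINB4 went opposite ways in different lines, with every array of a line on one side. For SERPINB4 the differences between CTX and control were 1.55 in SCC25, 3.81 in SQ20B and 1.47 in SCC61 against -2.74 in SCC047. For SERPINB3 they were 2.82 in SQ20B and 1.14 in 93VU147T against -1.98 in SCC047. No test of the difference between lines is given for these genes, since both were selected on this contrast.

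Outside the comparisons, 6 genes had a mean in untreated HaCaT above the highest control array of the 6 cancer lines. The HaCaT means were 10.35 for SERPINB3, 8.79 for SERPINB4, 12.92 for SERPINB5, 11.3 for SERPINB7, 7.64 for SERPINB8 and 12.03 for SERPINB13. HaCaT and its array batch cannot be told apart.

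The change with CTX differed between the 6 lines by limma's F test for 59.0% of all genes after adjustment over all of them, and for 2 of 4 other clade B genes, 3 of 9 proteases and 7 of 12 flanking genes. These were SERPINB10 (adjusted p = 0.000161) and SERPINB12 (adjusted p = 0.00201), both lower with CTX in SCC047, then CTSK (adjusted p = 7.26e-10), CTSS (adjusted p = 7.06e-07) and CTSV (adjusted p = 3.37e-05). Among the flanking genes they were DSEL (adjusted p = 7.58e-10), KDSR (adjusted p = 2.36e-08), PHLPP1 (adjusted p = 2.58e-07), ZCCHC2 (adjusted p = 6.96e-05), VPS4B (adjusted p = 0.000364), TNFRSF11A (adjusted p = 0.014) and DOK6 (adjusted p = 0.016).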

How the results depend on the processing

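No reversal or loss of direction was seen for the serpin changes that counted as moved, under any alternative run. SERPINB4 has 1 probe set, so the probe set alternatives could not change its values. The counts of moved genes varied. With the second brightest probe set they were 3 in SCC25, 2 in SCC61 and 0 in 93VU147T, with the mean of the probe sets 2 in SCC61 and 0 in 93VU147T, and with a minimum of 0.5 log2 units 2 in SCC25, 5 in SQ20B, 5 in SCC61, 1 in SCC090 and 4 in 93VU147T. Leaving out 1 array gave 1 to 2 in SCC25 (2 without control replicate 1) and 1 to 2 in 93VU147T (1 without control replicate 3). The cause of these shifts was not tested.

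Of the other clade B genes, 1 instead of 2 was called with medians centred, with quantile normalization and without 93VU147T, 0 without dim genes and without SCC047, and 1 to 3 when 1 array was left out (1 without 93VU147T CTX replicate 3 or SCC047 control replicate 2, 3 without SCC090 control replicate 2). Of the proteases, 2 instead of 1 were called with the second probe set, the mean of the probe sets, all arrays in the fit, without dim genes, with array batch as a covariate, and without SCC090 or 93VU147T, 0 with quantile normalization, and 1 to 2 when 1 array was left out (2 without CTX replicate 2 of 93VU147T, 3 of SCC61 or 1 of SCC047, or control replicate 3 of 93VU147T, SCC61 or SQ20B, 1 of SCC047, or 1 or 2 of SCC090). Of the flanking genes 2 instead of 7 were called with the second probe set, and 6 to 8 without 1 array. KDSR reversed to 0.19 with the second probe set and 0.04 with the mean of the probe sets, and TMX3 to -0.06 with the second.

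With the replicate number as a block (replicate block), 2 proteases instead of 1 were called, and no other count of calls moved by over 1.5 times (353 genes in SCC090 against 277). Leaving out 1 array moved the count in SCC090 between 50 (without control replicate 1) and 745 (without control replicate 2), with 566 without control replicate 3 and 104 to 169 without 1 CTX array.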
